A study of Oryza sativa Indica Group with 4 samples.

Results

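The brightest probe sets of the rice array were examined in RNA from young panicles. They were chosen by their measured signal, as the 200 probe sets with the highest mean of log2(normalised intensity + 16) over the 4 arrays, with ties broken by probe set name. A probe set is a group of short probes on an Affymetrix array that report the signal of 1 target transcript. Of the 200, 14 were left out because their gene carries an IAA, heat shock (HSP), H2B or PIP name (2 IAA, 8 HSP, 1 H2B and 3 PIP). The remaining 186 are the members, out of 57381 probe sets in the table. Brightness itself was used to choose them and is given as a description only. The contrast between bulks does not enter the rule and is tested, though the members were chosen with earlier results of these data known.

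The tissue was panicle primordia of Oryza sativa (Indica Group), at a stage given the number 0 in the labels. RNA was taken from pools of 10 recombinant inbred lines, which are near-homozygous lines obtained by selfing the offspring of a cross, here of 2 cultivars. High grain number bulks came from lines with many grains per panicle, and low grain number bulks from lines with few, with 2 arrays for each. No treatment and no transgene is named in the labels, and the signal of the individual lines within a bulk is not seen. The labels call the arrays biological replications without saying what these share, so the p-values rest on the spread between arrays, which may be technical. With 2 arrays in a group, limma also borrows most of each probe set's spread from the other probe sets. In bulk tissue, fewer cells of a type and less RNA per cell cannot be told apart.

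A panicle primordium is a cluster of dividing meristem cells that will form the branches and spikelets of the rice inflorescence. Dividing cells make ribosomes, tubulin and other proteins of basic cell function in large amounts, and transcripts for such proteins are usually abundant in growing tissue. Metallothioneins are small cysteine-rich proteins that bind metals, and their transcripts are abundant in many plant tissues. The signal of a probe set also depends on its probes and on how close they lie to the 3' end of the transcript, so brightness does not order the transcripts by abundance. The actin control probe sets show this within 1 gene. Their deposited intensities at the 3' end were 1615.7 and 1384.8 in high bulks, against 1432 and 1633 in low bulks. At the 5' end they were 58.7 and 55.8 in high bulks, against 36.1 and 45.4 in low bulks. The ratio of 3' to 5' actin signal was 27.5 and 24.8 in high bulks, against 39.7 and 36.0 in low bulks. For the GAPDH control probe sets it was 51.9 and 34.4 in high bulks, against 85.2 and 67.6 in low bulks. Both ratios thus stood higher on the low arrays, without overlap. The ubiquitin controls had 2083 and 1989.5 at the 3' end in high bulks, against 1957 and 2353 in low bulks. At the 5' end they had 911.6 and 930.4 in high bulks, against 606.8 and 1055.9 in low bulks, and their ratio overlapped between the groups. The actin and GAPDH difference runs along with the contrast between bulks, and its part in the results was not tested.

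Of the 186 members, 145 matched a single gene, 1 matched several and 40 matched no gene, and the 145 stood for 129 genes. A share of 78.0% of members was paired with 1 gene, against 39.2% of all probe sets other than controls. Only 29 of the 129 genes, on 35 probe sets, carry a symbol or synonym that names a function, and the other 100 are known here by their locus number. The functions described below therefore cover a minority of the members. The groups were drawn up after the members' names and differences had been seen, so their counts describe the members and support nothing further. Probe sets whose name ends in s or x, which can bind transcripts of more than 1 gene, made up 15.1% (28) and 14.5% (27) of the members. Over all probe sets those shares were 4.92% and 12.5%. The members' normalised intensities ran from 1125 to 5894, and the median member had a mean of 2573, where the median tested probe set had 20.2.

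The members held 13.1% and 13.3% of the summed deposited signal in high bulks, against 13.8% and 11.2% in low bulks. The mean share was 13.2% ± 0.169 for high grain number, against 12.5% ± 1.83 for low grain number (SD, n = 2 each). The groups overlapped (exact permutation test, two-sided, p = 1, where 2 against 2 arrays cannot go below 0.333). The low share was smallest on low grain number replicate 2, the array with the highest trimmed mean of deposited signal (55.6, against 36.7 to 40.7 on the others). Without that array the high minus low difference in share was -0.66 percentage points, where it was 0.639 with all arrays. Without low grain number replicate 1 it was 1.93, and on normalised values 0.0900. The same array had the highest ribosomal RNA control signals, 509.1 for 18S and 910.1 for 25S. The 18S signal was 10.5 and 153.9 on the high arrays and 1.4 on low grain number replicate 1. The part of ribosomal RNA in the results was not tested.

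The scale of that array against the others narrowed towards the bright end. Among probe sets ranked 1001 to 5000 its deposited intensity was 1.41 times the mean of the other 3 arrays at the median. It was 1.32 times for ranks 201 to 1000, 1.21 times for members ranked 101 to 200, 1.13 times for 51 to 100, 1.07 times for 21 to 50 and 1.01 times for the members in the first 20. The highest deposited value was 5914 and 5834 in high bulks, against 5953 and 5874 in low bulks. The arrays thus differed less at the top of the range than below it, and whether the signal was near a ceiling there was not tested.

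**Figure D1:**
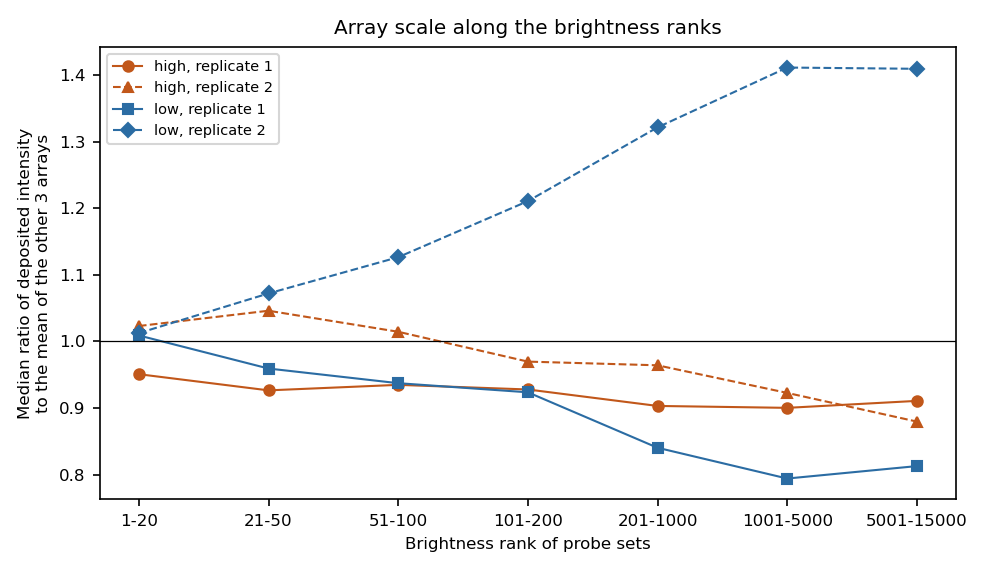
Median ratio of each array's deposited intensity to the mean of the other 3 arrays, for bins of brightness rank (names left out of the members are also left out of the first 4 bins). Low grain number replicate 2 is at 1.41 for ranks 1001 to 5000 and at 1.01 for the first 20.

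Of 12 young panicle genes listed as markers, 11 have a probe set here, of unequal brightness. OSH1, a meristem gene of the KNOX family, had normalised intensities of 527 and 605.5 in high bulks, against 763 and 650 in low bulks. SPL14, a regulator of panicle branching, had 144.5 and 185 in high bulks, against 492 and 282 in low bulks. These 2 were lower in high bulks, but 5 of the 11 had a positive difference, and the median log2 difference was -0.03. MADS15, close to OSH1 in brightness, had 699 and 584 in high bulks, against 716 and 545 in low bulks. RFL had 69.2 and 177.6 in high bulks, against 76.95 and 71.5 in low bulks. LAX1 was at 9.82 to 15.98 over the 4 arrays, OSH43 at 15.5 to 31 and DL at 19.7 to 27.1, near or below the median tested probe set. The summed signal of the 11 was 2303 and 2494 in high bulks, against 3020 and 2352 in low bulks. Of the 8 leaf photosynthesis symbols 2 were found. RBCS, the small subunit of Rubisco, had 40.1 and 64.7 in high bulks, against 34.7 and 33.6 in low bulks. CAB2R was bright and is described below with the members. The 4 stem and secondary wall markers summed to 52.0 and 86.8 in high bulks, against 341 and 419 in low bulks. The 3 of 4 anther tapetum markers that were found summed to 85.5 and 338 in high bulks, against 919 and 1585 in low bulks. The tapetum sum is carried by RTS and C6, and the third, TDR, had 57.8 and 43.8 in high bulks, against 45.4 and 39.4 in low bulks. No marker found was at 0 on all arrays. The part of these tissues in the members' differences was not tested.

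The measured signal of the brightest probe sets differed little between the bulks. The arrays also differed less in scale at this end of the range, as given above, and the part of that here was not tested. The median absolute log2 difference of the members was 0.09, which is 1.06-fold, against 0.16, or 1.12-fold, over all 34316 tested probe sets. The comparison with all tested probe sets, most of them dim, depends on the number added before the log. It was 0.0905 for members against 0.30 for all with 1 added, and turned round to 0.0880 against 0.0713 with 64 added. Probe sets ranked 201 to 1000, which are also bright, had 0.16, and with 1 or 64 added 0.16 and 0.15. Of the members, 168 (90.3%) lay within 1.2-fold, where 73.0% of ranks 201 to 1000 did. Over all tested probe sets it was 72.0%, and 91.3% with 64 added. The median SD of the members over 2 arrays was 0.09 log2 units among high arrays and 0.08 among low ones, where ranks 201 to 1000 had 0.13 and 0.12.

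The members as a group leaned in no one direction that held across scalings. Their median difference, high minus low, was 0.02, with 109 positive and 75 negative, and the median over all tested probe sets was 0.01. With the authors' scaling as deposited both medians were negative, -0.06 for the members and -0.07 for all tested probe sets, and median centring gave -0.06 and -0.07. In 62 members (33.3%) the high and low arrays did not overlap, where 37.1% of all tested probe sets had no overlap. For the first 2 ranks, LOC9266083 and a probe set of the metallothionein gene MT2C, the normalised values are equal on all arrays, because quantile normalization gives the same value to the same rank.

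**Figure D2:**
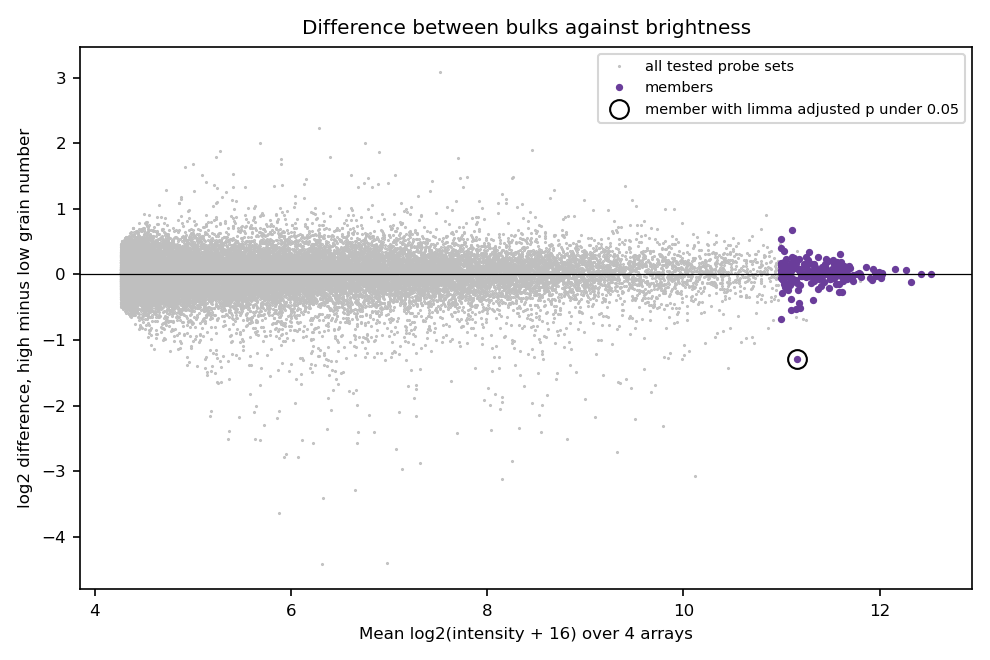
Difference between high and low grain number bulks on the log2 scale (vertical axis) against mean log2(intensity + 16) over 4 arrays (horizontal axis), for all 34316 tested probe sets (grey) and the 186 members (purple). The members sit in a narrow band around 0, and the circled member at -1.30 has a limma adjusted p under 0.05.

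Of the 186 members, 0 were higher and 1 was lower in the high grain number bulks at a limma adjusted p under 0.05, adjusted over all tested probe sets. Over all tested probe sets 0.154% were higher and 0.414% lower by that rule. At an unadjusted p under 0.05 there were 10 members, against 8.24% of all tested probe sets. By size, 1 member was at least 1.5-fold higher with no overlap and 2 were at least 1.5-fold lower, where 1.62% of all tested probe sets were higher and 2.4% lower. Together these are 1.61% of the members and 4.02% of all tested probe sets, but the share of all was 17.8% with 1 added before the log and 1.4% with 64 added. For ranks 201 to 1000 it was 5.75%, and 4.75% with 64 added. When the 14 left-out names were kept, a check chosen after the data were seen, 7 of the 200 passed by size (2 higher and 5 lower), and the same 1 probe set passed the adjusted threshold. The names left out therefore held 4 of the 7 probe sets past 1.5-fold.

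Genes for ribosomal proteins formed the largest named group, with 8 probe sets for 7 genes, and none of them passed the test. RPS21, a protein of the small ribosomal subunit, had intensities of 4198.5 and 4110.35 in high bulks, against 4110.35 and 4148 in low bulks. These 4 values lie within a few percent of each other, and the difference was 0.01 ± 0.12 on the log2 scale (SE). RPL39B, of the large subunit, had 3051 and 2808 in high bulks, against 2756.5 and 2873 in low bulks on its brighter probe set (difference 0.06 ± 0.13). Its other probe set gave 0.11 ± 0.14. Both lay inside their error, and with deposited scaling or median centring both turned slightly negative. RPL39C, a close relative of RPL39B, had 2518 and 2277 in high bulks, against 2126 and 1869 in low bulks, without overlap (0.26 ± 0.14, limma adjusted p = 0.718). Near-identical copies such as these can share probe signal. RPL9 had 2383 and 2082 in high bulks, against 1951 and 2170 in low bulks, with overlap.

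A further 3 members of the group encode ubiquitin joined to a ribosomal protein, from which both proteins are released by cleavage. RPS27AA had 2236 and 2653 in high bulks, against 2546 and 3203 in low bulks (difference -0.23 ± 0.16, limma adjusted p = 0.805). UBQ1 had 2804 and 2306 in high bulks, against 2530 and 2642 in low bulks, and UBQ2 had 2367 in both high bulks, against 2066 and 2444 in low bulks. Both overlapped between the groups. Over the whole array the same symbol patterns found 24 genes of this group, of which 7 had a member probe set. All 24 were tested, 0 passed (limma, 0 at an unadjusted p under 0.05), and on each gene's brightest probe set 8 were positive, with a median of -0.10 and a range of -0.29 to 0.26. The median of the 8 member probe sets was 0.07, so the bright members and the whole list had medians of opposite sign, both near 0.

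Translation factors gave 2 members. GOS2 encodes the initiation factor eIF1 and is often used as a constant reference in rice. It had 1983 and 1908 in high bulks, against 2358 and 2087 in low bulks, without overlap, and did not pass the test (-0.19 ± 0.14, limma adjusted p = 0.832). EF-1-alpha, the elongation factor that brings aminoacyl-tRNA to the ribosome, had 2087 and 1893 in high bulks, against 2150 and 2040 in low bulks (-0.07 ± 0.14). Of 9 tested genes of this group 0 passed (limma, with 0 below an unadjusted p of 0.05). Their median was -0.04. TCTP, a growth-related protein found in eukaryotes generally, was bright on both of its member probe sets, with differences of 0.11 ± 0.13 and 0.02 ± 0.14. On the brighter one it had 3565 and 4177 in high bulks, against 3744 and 3404 in low bulks.

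Tubulin and actin genes, which build the cytoskeleton, gave 6 member probe sets for 4 genes. TUBB5, a beta-tubulin, had 3846 and 3163 in high bulks, against 3429 and 3522 in low bulks, with the high values on either side of the low ones. TubA, an alpha-tubulin, was measured by 3 members, and in all 3 both high arrays stood above both low arrays after normalization. On its brightest probe set the normalised values were 3316 and 3283 in high bulks, against 3170.45 and 3106 in low bulks. Its deposited values there were 3102.5 and 3316 in high bulks, against 3056 and 3343 in low bulks. On deposited values the groups overlapped in all 3 probe sets. The 3 differences were 0.07 ± 0.13, 0.11 ± 0.13 and 0.16 ± 0.13 (limma adjusted p = 0.946, 0.905 and 0.852), all near the size of their error. These probe sets are paired with 1 gene and were read in the same RNA, so they are not independent, and their names end in s or x. ACT1, an actin, had 2665 and 2642 in high bulks, against 3253 and 2518 in low bulks (-0.11 ± 0.15). Of 24 genes of this group on the array 23 were tested and 0 passed (limma, with 0 below an unadjusted p of 0.05). Their median was 0.07.

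MT2C, a type 2 metallothionein, had 3 member probe sets, and the brightest ranked 2. Its normalised values are equal for the reason given above, and its deposited values were 5571 and 5454 in high bulks, against 5861 and 4991 in low bulks, with overlap. The other members gave 3805 and 4313 in high bulks, against 4177 and 4198.5 in low bulks (-0.05 ± 0.12), and 2761 and 2990.1 in high bulks, against 2679 in both low bulks (0.10 ± 0.13). APX2, a cytosolic ascorbate peroxidase that removes hydrogen peroxide, had 2898 and 2507 in high bulks, against 2518 and 2449 in low bulks (0.12 ± 0.14). Another type 2 metallothionein, MT2B, ranked 404 and is not a member. It had 951 and 739 in high bulks, against 3324 and 1565 in low bulks, a difference of -1.43 ± 0.28 (limma adjusted p = 0.0615). Of 16 genes of the group, which also takes in superoxide dismutases, 0 passed (limma, 2 at an unadjusted p under 0.05).

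**Figure D3:**
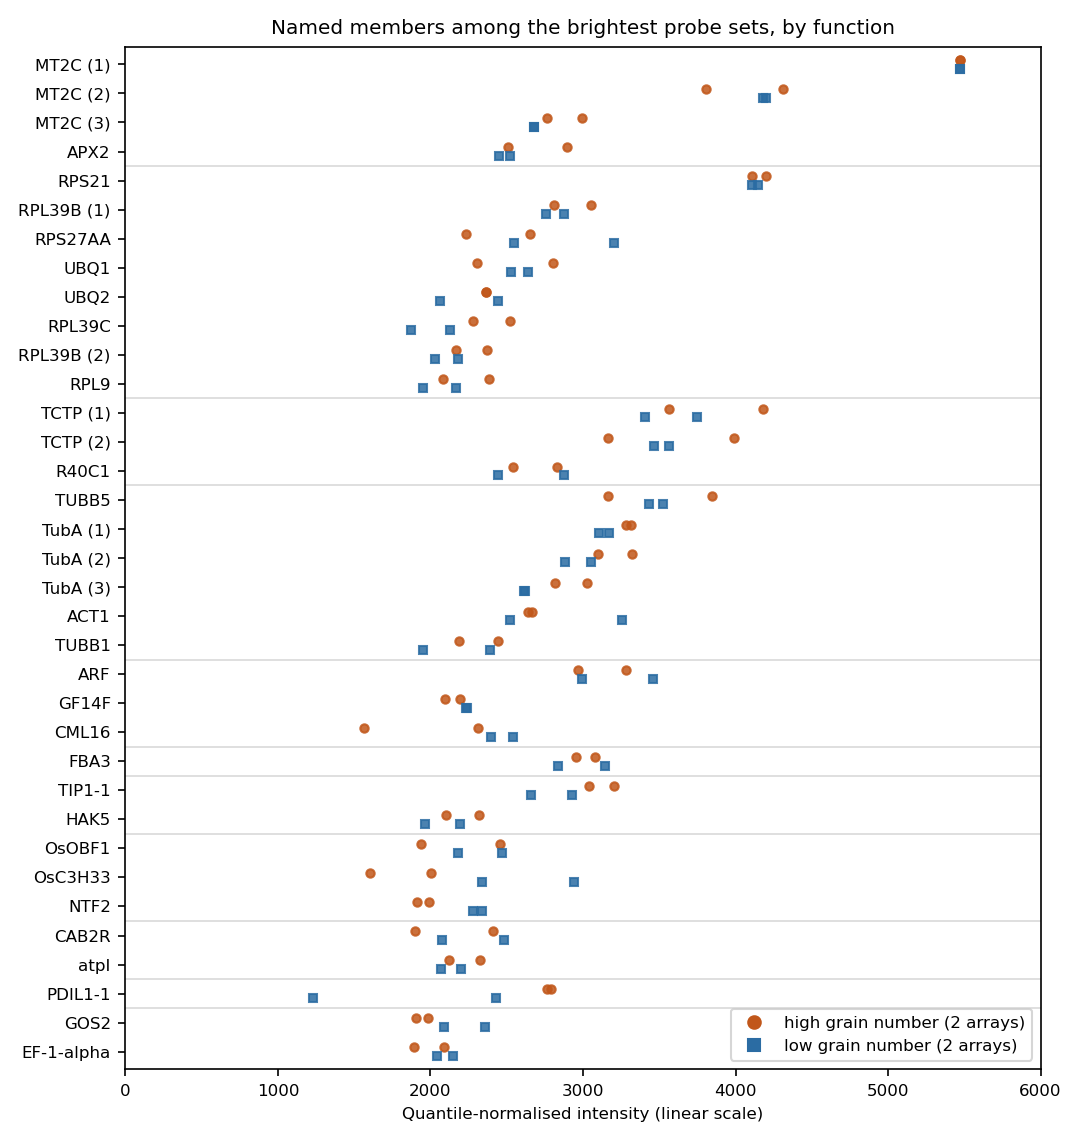
Quantile-normalised intensity on a linear scale (horizontal axis) of the 35 member probe sets with a named function, grouped by function, with 2 high grain number arrays (circles) above 2 low grain number arrays (squares) in each row. MT2C (1) is at 5469 on all 4 arrays because of the rank-based normalization, and PDIL1-1 has 1 low array at 1230.

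The other named members belong to metabolism, transport, signalling and the nucleus. FBA3, a fructose-bisphosphate aldolase of glycolysis, had 3078 and 2955 in high bulks, against 2837 and 3145 in low bulks (0.01 ± 0.13). TIP1-1, an aquaporin of the vacuole membrane, had 3203 and 3037 in high bulks, against 2925 and 2662 in low bulks, without overlap (0.16 ± 0.13, limma adjusted p = 0.849). HAK5, a potassium transporter, had 0.09 ± 0.14. CAB2R, a chlorophyll a/b binding protein of the light-harvesting complex, had 2410 and 1896 in high bulks, against 2479 and 2073 in low bulks. The groups overlapped (-0.08 ± 0.16). The probe set of atpI, a plastid-encoded subunit of ATP synthase, had 2120.3 and 2327 in high bulks, against 2199 and 2068 in low bulks.

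ARF, an ADP-ribosylation factor of vesicle traffic, had 3283 and 2965 in high bulks, against 2990.1 and 3456 in low bulks, with overlap. GF14F, a 14-3-3 protein that binds phosphorylated partners, had 2197 and 2095.5 in high bulks, against 2230.3 and 2238 in low bulks, again without overlap but with little between them (-0.06 ± 0.14). CML16, a calmodulin-like protein, had 1565 and 2314 in high bulks, against 2542 and 2395 in low bulks, without overlap (-0.37 ± 0.18, limma adjusted p = 0.652). NTF2, a nuclear transport factor, had 1989 and 1913 in high bulks, against 2282 and 2338 in low bulks, without overlap (-0.24 ± 0.14, limma adjusted p = 0.732). OsOBF1, a transcription factor of the bZIP family, had -0.09 ± 0.16, and R40C1, a lectin-like protein, had 0.02 ± 0.14. Of 33 tested genes for 14-3-3 proteins, calmodulins and ARF, 0 were higher and 1 was lower (limma). Of 50 in the list for nucleic acid binding and nuclear transport 0 were higher and 1, OsC3H37, was lower. Apart from OsOBF1 and NTF2, that list holds only genes for CCCH zinc finger proteins, so it does not stand for the wider class. The medians of these lists were -0.08 and -0.03. None of the members among them passed. For glycolysis and sucrose cleavage 0 of 17 tested genes passed (4 at an unadjusted p under 0.05, median -0.10), and for vacuole and potassium transport 0 of 25 (2 at an unadjusted p under 0.05, median 0.04). For photosynthesis 0 of 7 passed, with 0 at an unadjusted p under 0.05.

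The clearest exception among the members was the probe set at rank 135, which has no gene in the tables used here. It had 1125 and 1847 in high bulks, against 3639 and 3498 in low bulks, so both low arrays stood well above both high arrays. The difference was -1.30 ± 0.20 (limma adjusted p = 0.0174, lower in both of 2 high arrays). This call was lost without low grain number replicate 1 (difference -1.22, limma adjusted p = 0.155) and without low grain number replicate 2 (-1.40, 0.144). It was also lost without the trend in the spread (limma adjusted p = 0.0509). With no filter on dim probe sets its difference stayed at -1.30 and its limma adjusted p was 0.698, in a setting that called 0 of all 57194 probe sets. Its name ends in s, so its probes may bind transcripts of more than 1 gene.

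The other member lower by over 1.5-fold was LOC4335798, which had 1386 and 1841 in high bulks, against 2395 and 2752 in low bulks (-0.68 ± 0.17, limma adjusted p = 0.152). With median centring it passed (limma adjusted p = 0.0410). OsC3H33, a CCCH zinc finger protein, had 1602 and 2004 in high bulks, against 2338 and 2942 in low bulks (-0.55 ± 0.17, limma adjusted p = 0.315). The other probe set of OsC3H33, at rank 344 with a mean intensity of 1656, had a larger difference of -1.03, which did not pass the test. LOC9267997 had 1319.5 and 2648 in high bulks, against 3316 and 2206 in low bulks, so the groups overlapped (-0.53 ± 0.28, limma adjusted p = 0.698). The dimmest probe set of LOC9267997, with a mean intensity of 20.6, had the opposite sign (0.30). The probe set at rank 126, with no gene here, had 1854 and 2023 in high bulks, against 2919 and 2648 in low bulks (-0.52 ± 0.14, limma adjusted p = 0.202). LOC4327388 followed at -0.43 ± 0.14 (limma adjusted p = 0.368). At quantile normalization these members did not pass the test. The stem and tapetum marker sums given above were also lower on the high arrays, though TDR was not.

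The largest positive difference belonged to PDIL1-1, a protein disulfide isomerase that forms disulfide bonds in proteins of the endoplasmic reticulum. It had 2790.05 and 2761 in high bulks, against 1230 and 2429 in low bulks (0.68 ± 0.25, limma adjusted p = 0.460). The value rests on low grain number replicate 1. Without that array the difference was 0.19, and without low grain number replicate 2 it was 1.23 (limma adjusted p = 0.0478). Of 15 tested genes of protein folding in the endoplasmic reticulum 0 passed (limma, 1 at an unadjusted p under 0.05, which is PDIL1-1), with 10 positive and a median of 0.11. LOC4326170 showed the same order of arrays, with 2502 and 2391 in high bulks, against 1335 and 2126 in low bulks (0.53 ± 0.20, limma adjusted p = 0.473), and without low grain number replicate 1 its difference was 0.19. LOC4328826 had 2181 and 2502 in high bulks, against 1639.5 and 1896 in low bulks (0.40 ± 0.15, limma adjusted p = 0.478). LOC4325394 had 2245 and 2444 in high bulks, against 1891 and 1743.5 in low bulks (0.36 ± 0.14, limma adjusted p = 0.515). LOC4343529, at rank 49, had 3498 and 3385 in high bulks, against 2691 and 2852 in low bulks (0.31 ± 0.13, limma adjusted p = 0.553). The other probe set of LOC4343529, at rank 1113 with a mean intensity of 726, had the opposite sign (-0.16). That of LOC4325394, at rank 8620 with a mean intensity of 86.8, did too (-0.19). No positive member passed the test.

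**Figure D4:**
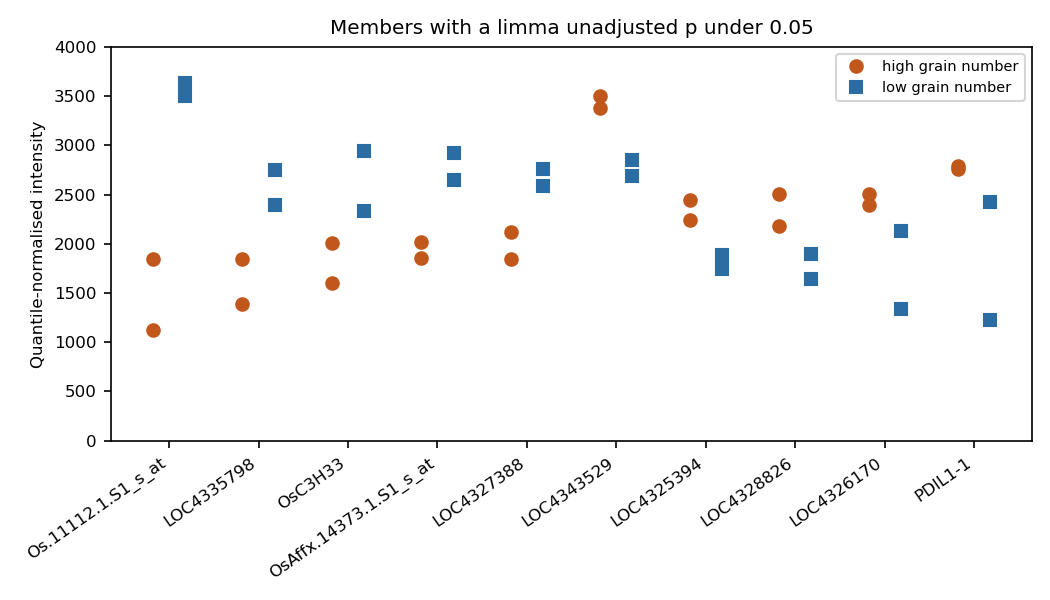
Quantile-normalised intensity on a linear scale (vertical axis) of the 10 members with a limma unadjusted p under 0.05, ordered by difference, for 2 high grain number arrays (circles) and 2 low grain number arrays (squares). On these normalised values the 10 have no overlap between groups, 5 with the high arrays below and 5 above. The probe set with no gene at rank 135, at the left, is the most separated. On deposited values the groups overlap for PDIL1-1, LOC4326170, LOC4328826 and LOC4325394.

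The largest spread within a group, chosen after values were seen, belonged to a probe set with no gene here at rank 109. It had 2031 and 3805 in high bulks, against 1309 and 3639 in low bulks, so replicate 2 was high and replicate 1 low in each group (0.35 ± 0.39). The 18S ribosomal RNA control was likewise higher on replicate 2 of each group, and its part here was not tested.

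Genes with several member probe sets allowed a comparison within the array. There were 14 such genes on 30 probe sets. Many of these probe sets, such as those of TCTP, have names that differ only in the ending. All were read in the same RNA and had to be bright to be members. They are not independent, so close values are partly built in and are given as a description. The differences of 1 gene's member probe sets lay within a median of 0.09 and at most 0.20 of each other on the log2 scale, which is near the members' median SE of 0.14. The members' genes also have 88 other probe sets outside the 200, with a median mean intensity of 152, and 53 of the 129 genes have at least 1. For 29 of these 53 genes the dimmest probe set had a mean intensity below 100. Of 78 of these other probe sets that were tested, 1 was higher and 1 lower at the adjusted threshold, which is 2.56%, against 0.568% of all tested probe sets. At an unadjusted p under 0.05 there were 14, or 17.9%, against 8.24%. The tested probe sets as a whole are dimmer, with a median of 20.2, so these shares are not matched for brightness. Among the 4000 probe sets ranked 1001 to 5000, 53 passed the adjusted threshold and 408 had an unadjusted p under 0.05 (limma).

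Neither of the 2 called differences among the members' other probe sets was seen on the bright probe set of its gene. For LOC4333210 the bright member had 2662 and 3051 in high bulks, against 3417 in both low bulks (-0.26 ± 0.13, limma adjusted p = 0.673). The other probe set of LOC4333210 had 387 and 352 in high bulks, against 82.0 and 114 in low bulks (1.77 ± 0.21, limma adjusted p = 0.00432). For LOC4341282 the bright member had 2935 and 3071 in high bulks, against 3028 and 2665 in low bulks (0.08 ± 0.13, limma adjusted p = 0.944). The other probe set of LOC4341282 had 5.42 and 14.8 in high bulks, against 170.15 and 152 in low bulks (-2.78 ± 0.23, limma adjusted p = 5.34e-04). Each gene's difference thus depended on which probe set was read.

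**Figure D5:**
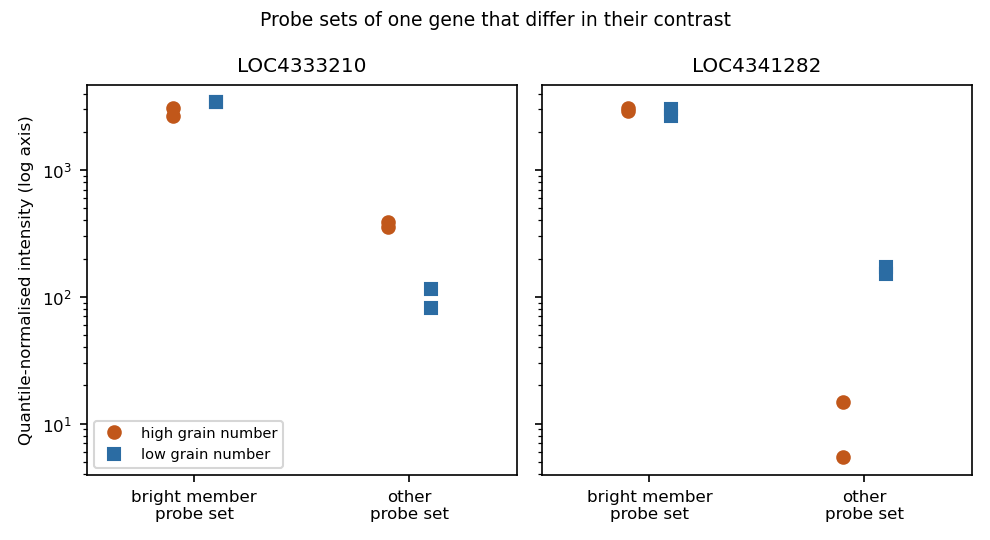
Quantile-normalised intensity on a log axis for the bright member probe set and the other called probe set of LOC4333210 and LOC4341282, with high grain number arrays (circles) and low grain number arrays (squares). The bright probe sets differ by at most 0.26 on the log2 scale, and the other probe sets by 1.77 and -2.78.

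At the edge of the choice the values were continuous. The last members, at ranks 197, 198 and 199, were LOC4343620, LOC4328390 and LOC4341310, with mean log2 values of 11.00, 10.99 and 10.99. The first probe sets outside, at ranks 201, 202 and 203, were those of the enolase gene Eno1, LOC4352673 and LOC4334154, each at 10.99. Ranking by deposited values kept 184 of the 186 members among the first 200, and so did median centring. Ranking each array alone kept 161 and 161 in high bulks, against 160 and 166 in low bulks, and 124 members were among the first 200 on every array.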

How the data were processed

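The deposited table holds 1 linear intensity per probe set and array. The submitters' processing notes name GCOS 1.2, and the scaling is not given in the sources used here. RNA was labelled with biotin by the Affymetrix procedure, per the labels' protocols. The 187 control probe sets were left out, and the other 57194 were quantile normalised and put on the log2(intensity + 16) scale. The 34316 probe sets whose mean log2 value reached the 40th percentile were tested in limma 3.58.1 (R 4.3.3, trend in the spread, group as the only term, Benjamini-Hochberg adjustment over all of them, two-sided). The number of arrays limits the precision. Differences are high minus low grain number, with limma's moderated SE.

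Genes come from a table of the array's probe sets and NCBI's gene table (ASM3414082v1). Of the 57194, 22436 had 1 gene, 95 several and 34663 none. Members and lists were chosen with earlier results of these data known. The themes of the functional groups were planned, but the patterns in symbols and synonyms that fill them were written after the members' names and differences had been seen, and themes without a member were dropped or merged. Genes named by rule are the 10 brightest members with a gene, the 3 brightest per group, called members, the 5 largest differences in each direction, genes with several member probe sets, and the edge of the choice. MT2B, the probe set with the widest spread within a group, and the genes' other probe sets were added once values had been seen. So were RPL39C, RPL9, UBQ1, UBQ2, ACT1, APX2, LOC4327388 and LOC4343529. OSH1, SPL14, MADS15, RFL, LAX1, OSH43, DL, RBCS, RTS, C6 and TDR come from the marker lists.

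Only the filter and the limma test were tried on simulated data. What they recovered depended strongly on the spread given to the simulated arrays. A first version, with spreads close to those observed, recovered none of the 2-fold changes. It was replaced after that result by a version with limma's moderated spreads, which recovered most of them, with some false calls. The changes it recovered were placed among bright probe sets only. A low number of calls among the members is therefore no measure of how many differ. Sequences were not used here.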

Additional observations from a re-analysis of the deposited data

How the results depend on the processing

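At the adjusted threshold no member was higher in high bulks under the scalings, pseudocounts and filters tried. The 1 lower member was 2 (2 lower) with median centring, 0 (0 lower) with no filter on dim probe sets and 0 (0 lower) without the trend in the spread. With the replicate block it was 3, with 3 lower, adding LOC4335798 (limma adjusted p = 0.0105) and OsC3H33 (0.0444), and over all probe sets the replicate block gave 654 calls instead of 195. The replicate numbers are only numbers here, since their 2 pairs are too few to establish pairing. Leaving out 1 array in turn gave 0 to 1 members at that threshold, 0 to 1 higher and 0 to 1 lower. There were 0 when low grain number replicate 1 was dropped, and dropping low grain number replicate 2 gave 1 higher (PDIL1-1) and 0 lower. The 3 members past 1.5-fold (1 higher, 2 lower) were 4 with deposited scaling (0 higher, 4 lower), 5 with median centring (1 higher, 4 lower) and 7 with the left-out names kept (2 higher, 5 lower). Leaving out 1 array gave 3 to 7, with 0 to 3 higher and 1 to 6 lower. Dropping replicate 2 of either group gave 7. The median difference of the members, 0.02, was -0.0648 with deposited scaling and -0.0618 with median centring, and their median absolute difference stayed at 0.0880 to 0.12. Over all tested probe sets the median absolute difference was 0.0713 with 64 added before the log and 0.30 with 1 added, so members lay above all probe sets in the first case and below in the second. Of 62 members named by the rule, 17 had another sign with both deposited scaling and median centring, none of them called, and the median of all tested probe sets also moved to -0.07 under both. Those 17, in that order of settings, were LOC4352868 (-0.0409 and -0.0379), LOC4333690 at rank 7 (-0.0155 and -0.0125), RPS21 (-0.030 and -0.027), LOC4333690 at rank 11 (-0.0149 and -0.0119), LOC4330533 at rank 13 (-0.0484 and -0.0454), TCTP at rank 22 (-0.035 and -0.032), TUBB5 (-0.0466 and -0.0436), FBA3 (-0.0378 and -0.0348) and LOC4328121 (-0.0667 and -0.0637). The others were RPL39B at rank 69 (-0.0181 and -0.0151), R40C1 (-0.0732 and -0.0702), LOC4340712 (-0.0367 and -0.0337), RPL39B at rank 152 (-0.015 and -0.012), atpI (-0.0869 and -0.0839), HAK5 (-0.0549 and -0.0519), LOC4343620 (-0.0755 and -0.0725) and LOC4328390 (-0.0662 and -0.0632). Leaving out 1 array gave both signs, or 0, over these ranges for LOC4333690 at rank 7 (-0.0286 to 0.0694), RPS21 (-0.0069 to 0.0241), MT2C at rank 9 (-0.12 to 0.0365), LOC4341944 (-0.0757 to 0.00353), LOC4333690 at rank 11 (-0.0259 to 0.10), TCTP at rank 18 (-0.00412 to 0.23), TCTP at rank 22 (-0.15 to 0.18) and TUBB5 (-0.14 to 0.15). It did so as well for LOC4333966 at rank 31 (-0.0395 to 0.024), ARF (-0.14 to 0.065), LOC4327106 at rank 47 (-0.12 to 0.0609), FBA3 (-0.0619 to 0.0971), LOC4333966 at rank 59 (-0.11 to 0.0558), LOC4328121 (-0.12 to 0.17), RPL39B at rank 69 (-0.00262 to 0.11) and LOC4330533 at rank 86 (-0.17 to 0.0382). The same held for R40C1 (-0.11 to 0.13), the probe set with no gene at rank 109 (-0.38 to 1.15), LOC4333416 (-0.15 to 0.0807), OsOBF1 (-0.25 to 0.0831), LOC4333148 (-0.00473 to 0.28), CAB2R (-0.25 to 0.0883), atpI (-0.00754 to 0.12), LOC4343620 (-0.0656 to 0.20) and LOC4328390 (-0.30 to 0.39). The causes were not tested. With 2 arrays in each group, small differences such as these cannot be told apart from 0.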
